A study of Mus musculus with 85 samples.

Results

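Venous and lymphatic vessel identity was read cell by cell from 7 genes, Nr2f2, Aplnr, Apln, Lyve1, Stab2, Prox1 and Mmrn1, in mouse embryos at the stages when blood stem cells form. The 7 were taken by gene symbol on every probe set that named 1 of them and no other gene, which gave 17 probe sets, out of 18193 genes on the array. Each sample was a single cell sorted after collagenase digestion, with its RNA converted to cDNA in the lysis buffer and hybridised to 1 Affymetrix mouse array. Of the 85 arrays 84 cells were counted, because arrays 20 and 21 of the fetal liver group were nearly identical (r = 0.991; any other 2 arrays reached at most 0.859) and were averaged.

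The E10.5 cluster cells (28 cells) were wild type, came from the caudal part of embryos at day 10.5, and were sorted as c-Kit+CD31+CD45+SSEA1-. The E12.5 cluster cells (16 cells) were wild type, sorted with the same markers from the aorta-gonad-mesonephros region at day 12.5. The fetal liver hematopoietic stem cells (HSC, 26 cells) were wild type and sorted at day 14.5 as Lin- cells with c-Kit, Sca-1, CD150 and Mac-1 but without CD48. The hemogenic endothelial cells (HEC, 7 cells) and the endothelial cells (EC, 7 cells) both came from the caudal part of day 10.5 embryos that carried the eR1-GFP transgene, in which an enhancer of Runx1 drives GFP. Both were sorted as CD31+Ter119-CD45-CD41-, with GFP present in HEC and absent in EC, so HEC here are defined by the activity of that enhancer and not by a blood-forming assay. The cluster cells and HSC carried no transgene, so genotype differs between blood and endothelial populations together with cell type.

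As background, arteries and veins are laid down early as separate identities. Notch signalling holds the arterial state, and the orphan nuclear receptor Nr2f2 (COUP-TFII) represses Notch components in veins. Aplnr, a G protein-coupled receptor, marks venous and sprouting endothelium, and its peptide ligand apelin (Apln) is made by sprouting tip cells. Lymphatic endothelium arises from Nr2f2-positive veins that switch on the homeobox factor Prox1. Lyve1 (a hyaluronan receptor) and Stab2 (a scavenger receptor that also takes up hyaluronan) are worn by lymphatic or sinusoidal endothelium, and Lyve1 also by many tissue macrophages. Mmrn1 encodes multimerin 1, an EMILIN-family protein stored in platelets and endothelial cells and used as a lymphatic marker. Blood clusters bud from arterial hemogenic endothelium of the dorsal aorta.

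Values are the deposited log2 expression values, in which an undetected probe set sits near 2.3, and a probe set was counted as above background over 5. Because RNA of 1 cell was amplified, a value at background means not detected, not absent. E10.5 cluster cells had 9943 ± 897 probe sets above background, E12.5 cluster cells 7820 ± 1755, HSC 6552 ± 884, HEC 7712 ± 765 and EC 5905 ± 1447 (SD over cells), so detection was not equal between populations. The labels name no animal, litter or culture, so each population counts as 1 sample. No p-value is given, the number of arrays limits the precision, and SDs and exact Clopper-Pearson 95% intervals describe spread or counting error over cells only. A gene was called higher or lower where 2 population means differed by 1 log2 unit or more.

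Marker genes followed the sorted identity in most cells and went against it in 6. Cdh5 (VE-cadherin) was detected in all 7 HEC and in 6 of the 7 EC. Ptprc (CD45) was detected in 26 of 28 cells of the E10.5 clusters, 15 of 16 of the E12.5 clusters and 22 of 26 HSC, against 0 HEC and 0 EC. EC cell 3 had Cdh5 at 2.32, 2 of 19 pan-endothelial genes and 5 of 7 germ-cell genes, among them Dppa3 at 14.59 and Pou5f1 at 13.96. E12.5 cluster cells 3, 6 and 10 held 10, 11 and 11 of 15 macrophage genes, against 0 to 2 in the other 13 cells. HSC cells 5 and 7 held 15 and 17 of 19 pan-endothelial genes, against 4 to 11 in the other 24 HSC. Results that rest on these 6 cells are given with and without them.

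At least 1 of the 7 genes was above background in 57 of the 84 cells, and in 42 of those 57 Mmrn1 was the only one. A gene other than Mmrn1 was detected in 15 cells: 0 from E10.5 clusters, 2 from E12.5 clusters, 4 HSC, 3 HEC and 6 EC. Of the 17 probe sets 11 were above background in at least 1 cell. A gene detected in 3 cells or more was treated as measured, which 6 of the 7 were, with Prox1 the exception.

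**Figure D1:**
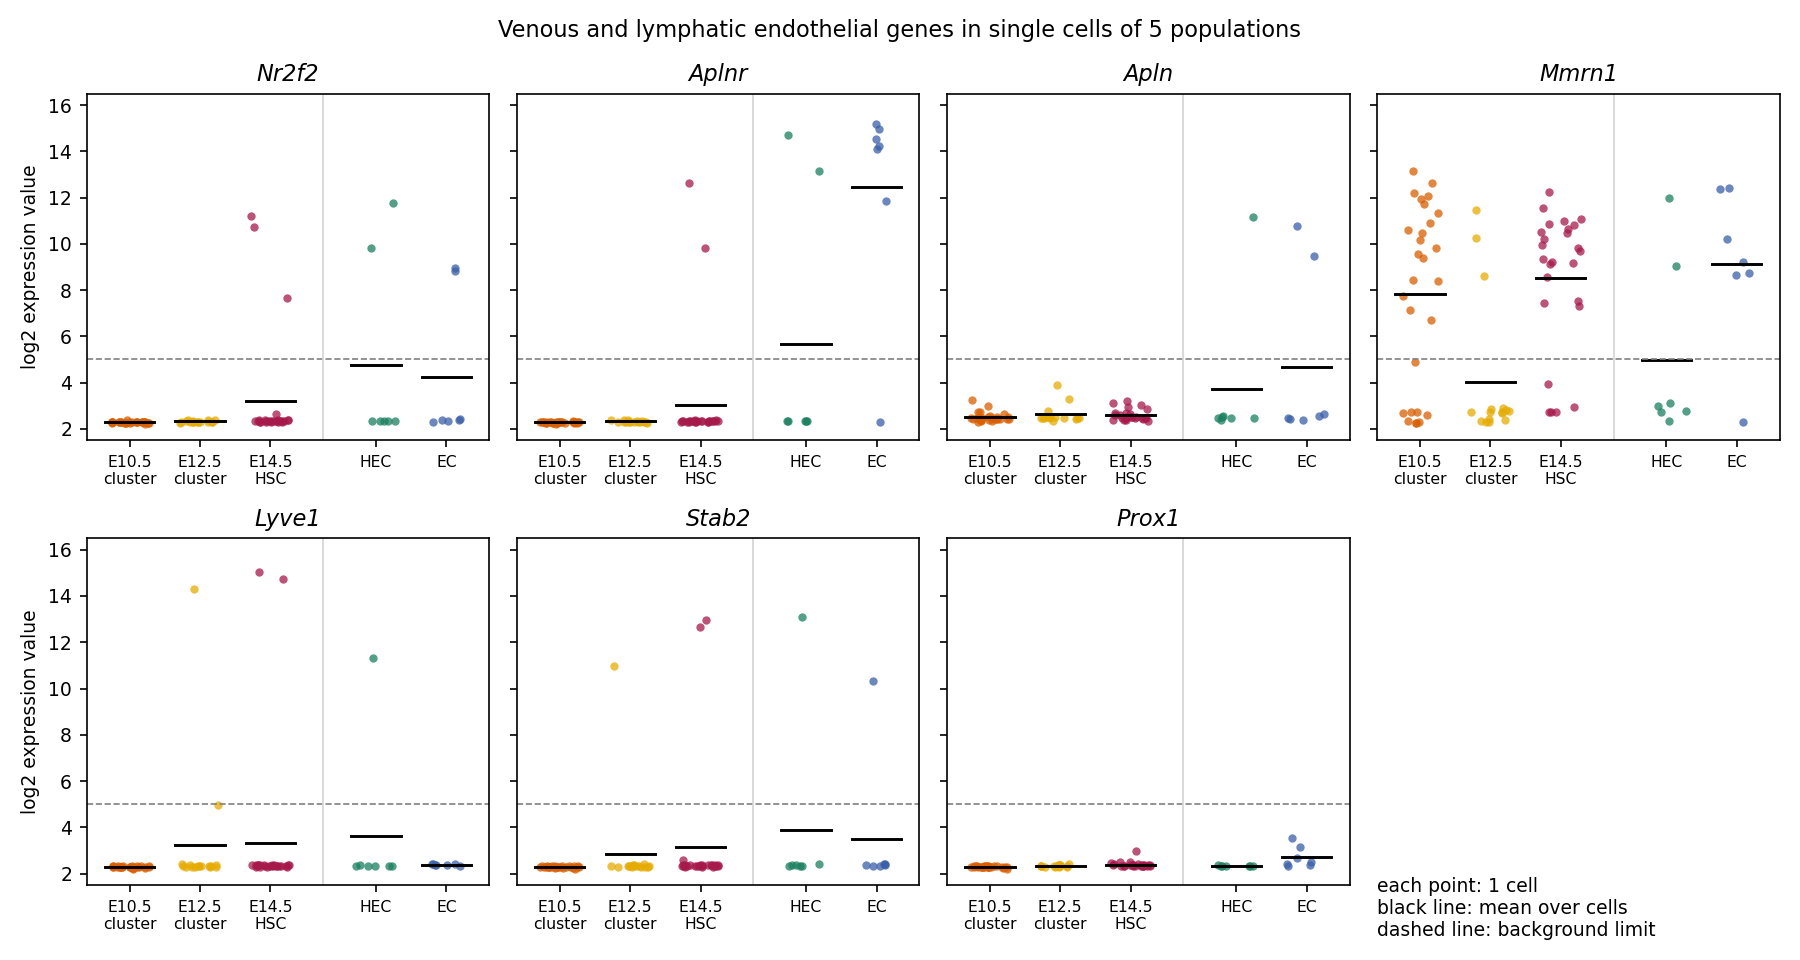
Log2 expression value (y axis) of each of the 7 genes in every cell of the 5 populations (x axis, with HEC and EC to the right of the thin grey line), on the probe set with the highest mean. Each point is 1 cell, the black bar is the mean over cells and the dashed line is the background limit of 5. Mmrn1 is spread over all 5 populations, Aplnr is high in 6 of 7 EC, and Nr2f2, Apln, Lyve1 and Stab2 stand in single cells.

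Among the 7 genes Aplnr, the apelin receptor, differed most in mean level between EC and HEC. In HEC it was above background in cell 3 (14.72) and cell 6 (13.17), while the other 5 HEC lay between 2.32 and 2.35. In EC it was above background in cells 1, 2, 4, 5, 6 and 7, at 14.96, 14.51, 11.84, 14.12, 14.21 and 15.17, and cell 3 lay at 2.32. Thus 2 of 7 HEC (28.6%, 95% interval 3.67 to 71.0%) held the receptor, against 6 of 7 EC (85.7%, 42.1 to 99.6%). The populations overlap only through the 2 high HEC and the 1 low EC, and that EC is the cell with germ-cell genes.

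Mean Aplnr was 5.65 ± 5.68 in HEC and 12.45 ± 4.60 in EC (SD, n = 7 cells each). The difference, HEC minus EC, was −6.80, the lowest of the 10694 measured genes, among which 7.36% were lower by 1 or more. It was −8.48 without EC cell 3. The second probe set of Aplnr was above background in the same cells, at 10.96 and 9.98 in the 2 HEC and from 6.52 to 11.70 in the 6 EC.

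Aplnr was not detected in any E10.5 cluster cell (0 of 28, which allows a share of up to 10.7%) or E12.5 cluster cell (0 of 16, up to 18.8%). Those cells lay at 2.28 ± 0.03 and 2.32 ± 0.03. Among HSC it was above background in cell 5 (12.61) and cell 9 (9.81), and on the second probe set in cell 5 alone (9.21). In order of mean level, EC stood above HEC by more than either SD, HEC stood above HSC (3.02 ± 2.44) by less than the SD of HEC, and the clusters lay at the floor. E10.5 cluster minus EC was −10.16 for Aplnr, again the lowest of the 10694 genes.

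Apln, the ligand, was detected in 3 cells. HEC cell 3 held it at 11.18, against EC cells 6 and 7 at 9.47 and 10.77, and the remaining HEC and EC lay between 2.37 and 2.66. No cluster cell or HSC exceeded 3.91. All 3 Apln cells also held Aplnr, so ligand and receptor transcripts were found in the same cell 3 times, and 7 cells held the receptor alone. Mean Apln was 3.72 ± 3.29 in HEC and 4.67 ± 3.74 in EC. HEC minus EC was −0.95, less than either SD, and −1.32 without EC cell 3. Apela, which encodes the second ligand of the receptor, was not above background in any of the 84 cells.

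Nr2f2, the venous transcription factor, was as frequent in HEC as in EC. It was above background in HEC cells 3 (9.82) and 6 (11.78), against EC cells 1 (8.95) and 4 (8.84), with the other 5 cells of each population between 2.32 and 2.41. Mean Nr2f2 was 4.75 ± 4.17 in HEC and 4.23 ± 3.19 in EC (SD, n = 7 cells each), a difference of 0.52 that is smaller than either SD and changed sign under both rescalings (−0.46 with cells shifted to an equal median, −0.40 after quantile normalization). Nr2f2 was not detected in cluster cells of either stage. Among HSC it stood at 11.22 in cell 5, 7.67 in cell 6 and 10.74 in cell 7.

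Of the 6 Nr2f2 probe sets 4 were above background somewhere, and 2 of these 4 repeated the detection in EC cell 4 (7.99 and 8.24). Another probe set also repeated it in HSC cell 5 (5.11) and in HSC cell 7 (10.63). In HEC cells 3 and 6, EC cell 1 and HSC cell 6 the detection rested on a single probe set. The pairing with Aplnr was partial: 5 of the 7 Nr2f2 cells held Aplnr, and 5 of the 10 Aplnr cells held Nr2f2. The HEC and EC with Nr2f2 all held Aplnr, but so did 6 of 7 EC. Of the HSC with Nr2f2 only cell 5 held Aplnr. EC cells 2, 5, 6 and 7 held Aplnr with Nr2f2 at background. In order of mean level HEC and EC stood above HSC (3.22 ± 2.51) by less than the SD, and both clusters lay at the floor. Of its relatives, Nr2f1 was above background only in HSC cells 5 (10.80) and 7 (10.85), and Nr2f6 in 8 E10.5 and 3 E12.5 cluster cells, 2 HSC, 2 HEC and 2 EC.

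Mmrn1 was the 1 gene of the 7 that blood cells carried widely. At E10.5 19 of 28 cluster cells held it (67.9%, 47.6 to 84.1%), and at E12.5 3 of 16 (18.8%, 4.05 to 45.6%). The other populations had it in 21 of 26 HSC (80.8%, 60.6 to 93.4%), 2 of 7 HEC (28.6%, 3.67 to 71.0%) and 6 of 7 EC (85.7%, 42.1 to 99.6%). Among these cells the share was lower at E12.5 than at E10.5 and in HSC, and without the 6 cells it was 3 of 13 at E12.5 and 20 of 24 in HSC. Each population is 1 sample, so whether the stages differ was not tested. The probe set that carried these values is 1 of 2 for the gene, and the other was not above background in any cell.

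In single cells Mmrn1 ran from 2.25 over a median of 8.92 to 13.17 in the E10.5 clusters. In the E12.5 clusters it ran from 2.29 over a median of 2.72 to 11.46, with cells 4 (11.46), 9 (10.27) and 12 (8.63) above background. In HSC it ran from 2.72 over a median of 9.51 to 12.24. The 2 HEC with Mmrn1 were cells 3 (11.99) and 5 (9.06), while the other 5 HEC lay between 2.32 and 3.10. EC cells 1, 2, 4, 5, 6 and 7 had 12.38, 8.72, 8.65, 9.24, 10.20 and 12.42, and EC cell 3 had 2.32.

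In order of mean level, EC (9.13 ± 3.40) stood above HSC (8.53 ± 2.997), E10.5 cluster cells (7.83 ± 3.91), HEC (5.00 ± 3.88) and E12.5 cluster cells (4.02 ± 3.08). No 2 neighbours in that order differed by more than their SDs. Across steps of the order, HEC minus EC was −4.13, rank 7 from the lowest of 10694 genes, and −5.27 without EC cell 3. E12.5 minus E10.5 cluster cells was −3.81, rank 144 from the lowest, and −3.49 without the 6 cells. HSC minus E12.5 cluster cells was 4.51, rank 22 from the highest, and 4.35 without the 6 cells. HSC minus E10.5 cluster cells was 0.70, below the size called.

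Detection did not follow the number of probe sets above background in 1 direction. Within populations the correlation of Mmrn1 with that number was −0.47 in the E10.5 and 0.43 in the E12.5 clusters, −0.04 in HSC, 0.61 in HEC and −0.39 in EC, over 28, 16, 26, 7 and 7 cells. Where both the Dap 3' and the Phe 3' control sat at their common value, the pattern of cells was alike, at 17 of 22, 2 of 11, 15 of 17, 1 of 5 and 5 of 6 cells in the same order. In those cells, which keep EC cell 3 and leave out EC cell 1, E10.5 cluster minus EC was 0.06, against −1.30 in all cells. Without EC cell 3 alone it was −2.44. The difference thus depends on which EC are counted, and the order of these 2 populations is not settled.

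Multimerin 1 is best known from platelets, so megakaryocyte genes were set beside it. Of the 12 such genes on the array, cluster cells held 1 to 7 at E10.5 and 0 to 4 at E12.5, HSC 1 to 6 (1 to 4 without HSC cells 5 and 7), HEC 1 to 2 and EC 0 to 1. Over the 28 E10.5 cluster cells Mmrn1 correlated with Pf4 (platelet factor 4) at 0.18, Gp9 at 0.10, Itga2b (CD41) at −0.01 and Nbeal2 at −0.22, and over the 26 HSC with Selp (P-selectin) at 0.25 and Vwf at −0.21. These values are weak and describe the cells sampled. Hlf, a transcription factor of stem cells, was above background in 5 E10.5 cluster cells, all of which held Mmrn1 (r = 0.38), and in 21 HSC, 17 of which did (r = −0.02). Of the other EMILIN-family genes, Emilin1 was detected in 28 of 28 E10.5 cluster cells and Emilin2 in 21 of 28, with r = −0.46 between Emilin2 and Mmrn1.

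The stretch just before the start of Mmrn1 is shown because it is the member found in blood and endothelial cells alike, and that of Stab2 because it marks only 5 cells. Sequences are RefSeq promoter windows on GRCm38.p6, 250 bases that end at the base before the gene's start, 5′ to 3′ on the gene's strand, at chr6:60944067-60944316 (plus strand) for Mmrn1 and chr10:87007943-87008192 (minus strand) for Stab2. Capitals mark matches on either strand to GATAA (the core read by GATA factors) or AGGAAG (an ETS core).
Mmrn1: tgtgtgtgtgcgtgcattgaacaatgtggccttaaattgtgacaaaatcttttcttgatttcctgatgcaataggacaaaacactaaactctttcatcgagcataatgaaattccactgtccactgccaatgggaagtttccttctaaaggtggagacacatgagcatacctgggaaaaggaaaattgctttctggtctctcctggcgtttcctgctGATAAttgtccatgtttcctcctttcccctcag
Stab2: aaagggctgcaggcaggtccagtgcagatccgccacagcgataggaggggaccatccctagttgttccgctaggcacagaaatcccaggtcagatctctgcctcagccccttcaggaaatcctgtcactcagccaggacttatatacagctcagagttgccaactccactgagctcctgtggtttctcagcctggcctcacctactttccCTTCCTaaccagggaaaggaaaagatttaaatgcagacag

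The Mmrn1 window holds 1 GATAA, 33 bases before the start, and no AGGAAG. It also holds ACAAT or its complement (a SOX core) 230, 215 and 29 bases before the start, the last overlapping the GATAA by 1 base. The Stab2 window holds 1 AGGAAG on the opposite strand 40 bases before the start and 1 TGTGGT (a RUNX core) 73 bases before it, and no GATAA. Among all 32851 windows of that length, GATAA on either strand was in 22.6%, AGGAAG in 29.5%, TGTGGT in 14.05% and ACAAT in 27.7%, so each match is common. RefSeq windows were matched for 5 of the 7 genes, and of the others Nr2f2 held AGGAAG once (218 bases before the start), Apln once (113) with TGTGGT at 66 and 37, and the 2 Prox1 windows held none of the 4 motifs.

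Lyve1 and Stab2, which both bind hyaluronan on lymphatic or sinusoidal endothelium, were detected in few cells of any population. Lyve1 was above background in E12.5 cluster cell 10 (14.29), HSC cells 5 (15.05) and 7 (14.73) and HEC cell 7 (11.31), and not in EC (0 of 7, which allows a share of up to 42.9%). The second Lyve1 probe set was above background in the same 4 cells, at 8.52, 11.73, 11.03 and 5.64. Stab2 was above background in E12.5 cluster cell 6 (10.95), HSC cells 5 (12.98) and 7 (12.66), HEC cell 6 (13.11) and EC cell 1 (10.31). Neither gene was detected in an E10.5 cluster cell.

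All 3 blood-population cells with Lyve1, and all 3 with Stab2, were among the 6 cells whose genes went against their sorted identity. Without these 6 cells Lyve1 and Stab2 were at background in all 28 E10.5 cluster cells, 13 E12.5 cluster cells and 24 HSC. HSC minus E10.5 cluster cells was then 0.05 for Lyve1, against 1.02 with them, and E12.5 minus E10.5 cluster cells 0.03, against 0.95. Both genes were in the same cell only in HSC cells 5 and 7. Mean Lyve1 was 3.23 ± 3.02 in E12.5 cluster cells, 3.30 ± 3.41 in HSC and 3.61 ± 3.39 in HEC, with EC and E10.5 cluster cells at the floor. Mean Stab2 was 2.86 ± 2.16 in E12.5 cluster cells, 3.16 ± 2.84 in HSC, 3.88 ± 4.07 in HEC and 3.503 ± 3.0004 in EC, with E10.5 cluster cells at the floor. Among the populations above the floor, neighbours in these orders differed by less than their SDs.

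**Figure D2:**
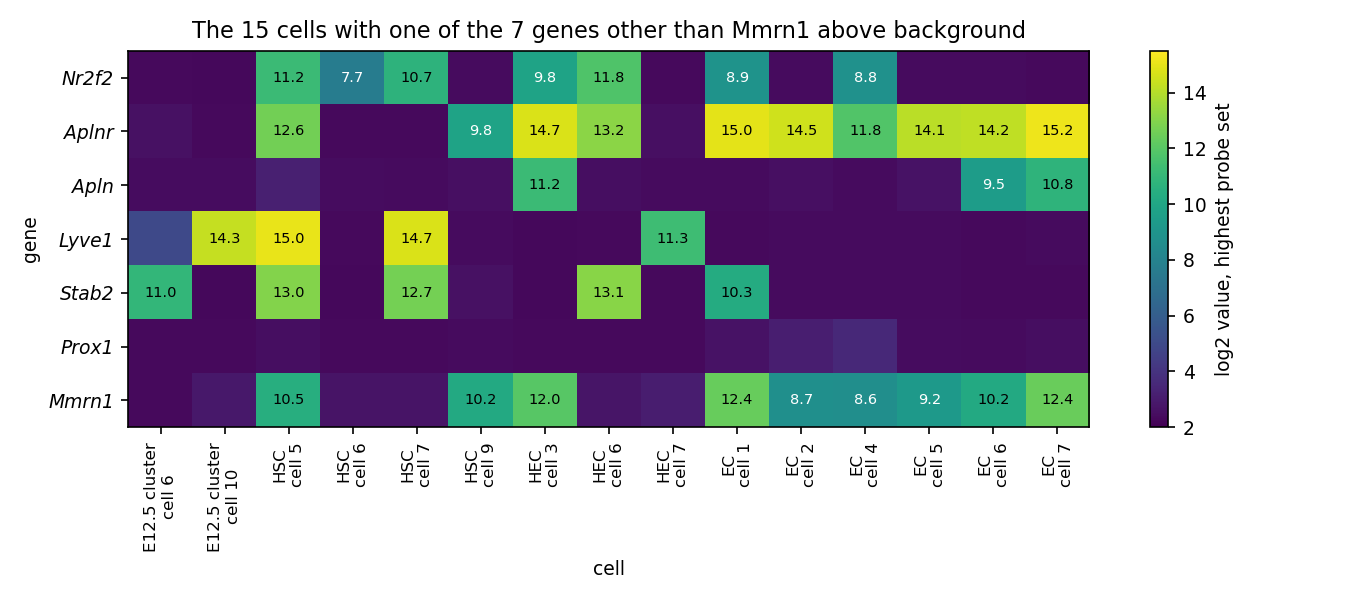
Log2 value (colour scale, highest probe set of the gene) of the 7 genes in the 15 cells with a gene other than Mmrn1 above background, with 1 column per cell and values above 5 printed. The 6 EC share Aplnr and Mmrn1, HSC cells 5 and 7 share Nr2f2, Lyve1 and Stab2, and no E10.5 cluster cell appears.

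HSC cell 5 held 5 of the 7 genes (Nr2f2, Aplnr, Lyve1, Stab2 and Mmrn1) and HSC cell 7 held 3 (Nr2f2, Lyve1 and Stab2). Both held 11 of the 14 liver sinusoid genes other than these 7, against 0 to 4 in the other 24 HSC, and 6 and 9 of 9 other venous genes, against 0 to 3. Among them Stab1 stood at 13.02 and 14.47, Mrc1 (mannose receptor) at 13.68 and 12.08, Oit3 at 11.53 and 12.15, Maf at 13.51 and 11.98, Flt4 (VEGFR3) at 12.38 and 12.22 and F8 (coagulation factor VIII) at 9.62 and 9.20, and all 6 were at background in the other 24 HSC. Clec4g, Gata4 and Fcgr2b (4.12 and 2.73) were at background in both cells.

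In the same cells Cdh5 stood at 10.62 and 11.17 and Cldn5 at 12.05 and 11.89, while Ptprc was at background (2.34 and 2.33, against 22 of 24 other HSC above it), as were Myb (24 of 24) and Mecom (23 of 24). Kit was 2.48 in cell 5 and 9.34 in cell 7. They held 4 and 5 of 18 pan-hematopoietic genes, against 10 to 16 in the other HSC, and 0 and 0 of 9 hepatocyte genes. Of the macrophage list each held 2 of 15, with C1qa and C1qb at background. The cells met the endothelial markers rather than the blood markers, and how they came into the sort was not tested.

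HSC cell 6 held Nr2f2 at 7.67 and HSC cell 9 held Aplnr at 9.81, each lower than in HSC cell 5. Of the 9 other venous genes cell 6 held 1 (Vwf at 11.80, detected in 11 of the 24 HSC other than cells 5 and 7) and cell 9 held 0. Their blood genes were detected: Ptprc stood at 11.45 and 11.26, Kit at 11.56 and 11.39 and Mecom at 12.85 and 10.45, with Cdh5 at background.

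E12.5 cluster cells 6 (Stab2) and 10 (Lyve1) held 11 and 11 of 15 macrophage genes and also 6 and 5 of the 14 sinusoid genes. Cell 3, with 10 macrophage genes, held 7 sinusoid genes but neither Lyve1 nor Stab2. The 13 E12.5 cluster cells apart from these held 0 to 3 sinusoid genes. In cells 6 and 10 C1qb stood at 15.59 and 15.88, C1qa at 13.41 and 12.32 and Adgre1 (a macrophage surface receptor) at 13.86 and 13.45. Mrc1, which is on both lists, stood at 14.30 and 14.85, and the sinusoid genes Maf at 14.45 and 14.75 and Stab1 at 14.04 and 13.18. Cdh5 was at background, as were all but 0 and 2 of the 19 pan-endothelial genes, and Ptprc stood at 12.95 and 12.11. Kit, part of their sorting gate, was at background (4.06 and 2.45), as it was in cell 3 (3.53). The E12.5 cluster cells apart from cells 3, 6 and 10 had Kit above background in 13 of 13. Lyve1 in cell 6 lay at 4.96, just under the limit. In the blood populations 2 cells with Lyve1 or Stab2 thus had pan-endothelial genes and few macrophage genes. The other 2 had macrophage genes and few pan-endothelial genes. The sinusoid genes above background in all 4 were Stab1, Mrc1, Maf and Ctsl, which E12.5 cluster cell 3 also held. Ctsl was not particular to these cells, being above background in 9 of the 13 other E12.5 cluster cells and 16 of the 24 other HSC. Oit3, F8, Flt4 and Dnase1l3 were above background in HSC cells 5 and 7 but at background in E12.5 cluster cells 6 and 10.

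**Figure D3:**
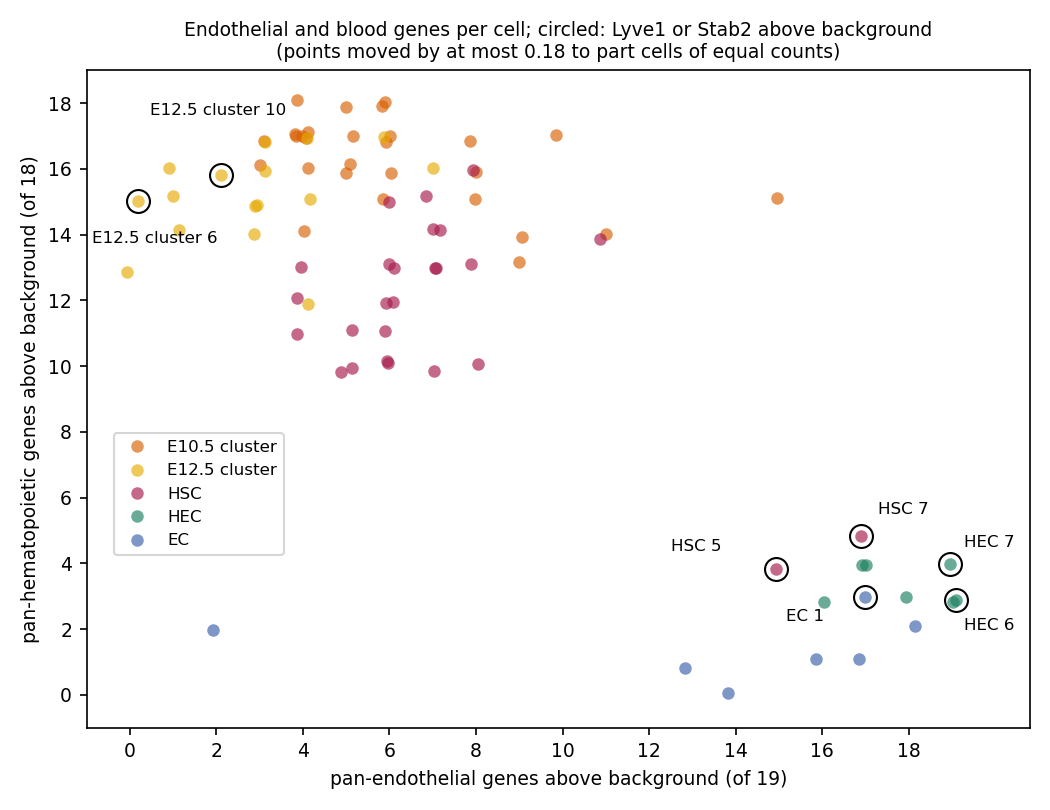
Number of pan-endothelial genes above background (x axis, of 19) against number of pan-hematopoietic genes above background (y axis, of 18), 1 point per cell, coloured by population, with cells that hold Lyve1 or Stab2 circled. HSC cells 5 and 7 lie among HEC and EC with 15 and 17 endothelial genes, and E12.5 cluster cells 6 and 10 lie among the blood cells with 0 and 2.

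HEC differed among themselves in how many of the 7 genes and of the arterial genes they held. HEC cells 1, 2 and 4 held none of the 7 and 15, 13 and 15 of 18 arterial genes, cell 5 held Mmrn1 and 16 arterial genes, and cell 7 held Lyve1 and 17. HEC cell 3, with Nr2f2, Aplnr, Apln and Mmrn1, held 5 arterial genes. In that cell Gja4 (connexin 37) was at 2.31, and Dll4, Hey1, Sox17 and Mecom were also at background. Efnb2 stood at 12.42, Nrp2 at 12.80, Flt4 at 12.50 and Kit at 11.59 there. Of the 9 other venous genes HEC cell 3 held 6, with Ephb4, Vwf and Sox18 at background. HEC cells 1, 4 and 5 also held 6, cell 2 held 5, cell 6 held 8 and cell 7 held 9. HEC cell 6, with Nr2f2, Aplnr and Stab2, held 11 arterial genes, among them Gja4 at 12.12, Hey2 at 10.55 and Sox17 at 11.42, beside 9 of 14 sinusoid genes, among them Gata4 at 12.09, Maf at 14.06, Mrc1 at 13.46 and Oit3 at 13.65.

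EC held 3 to 8 arterial genes and 2 to 4 of the 7 genes, apart from cell 3 with 0 of each. Detection differed too, with 6670 to 9065 probe sets above background in HEC and 3908 to 8308 in EC. Over the 14 cells the 18 arterial genes were all higher in HEC than in EC, with a median difference of 4.71, against 0.82 over all measured genes, and 4.39 without EC cell 3. Aplnr and Mmrn1 were lower in HEC, where arterial genes were higher, while Nr2f2 shared HEC cell 6 with Gja4, Hey2 and Sox17.

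**Figure D4:**
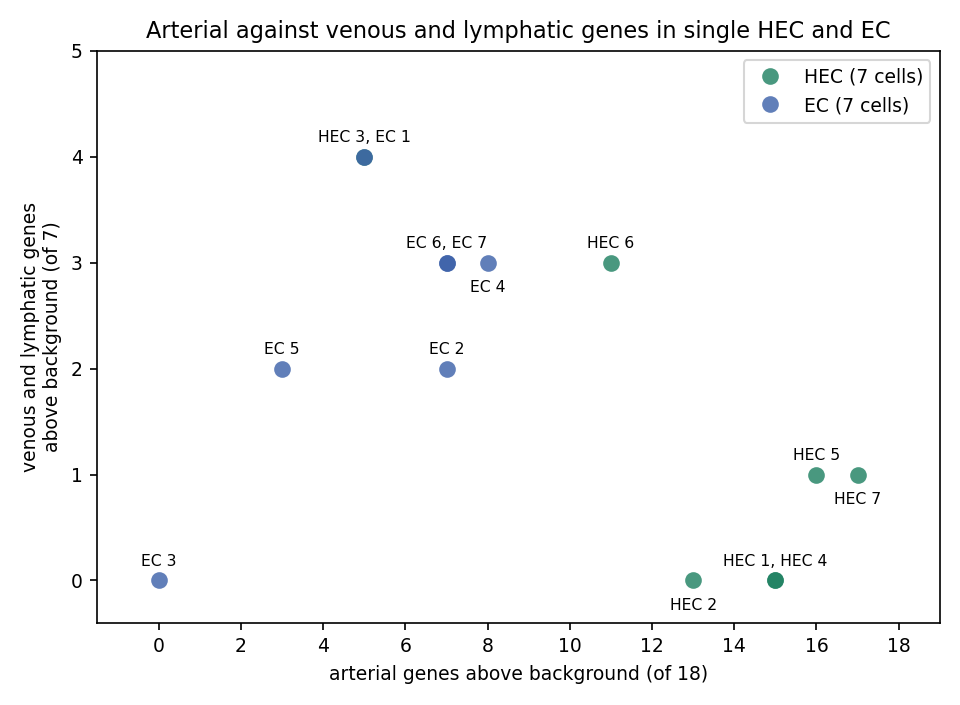
Number of arterial genes above background (x axis, of 18) against number of the 7 venous and lymphatic genes above background (y axis) in each HEC and EC, labelled by cell number. HEC cells 1, 2 and 4 hold 13 to 15 arterial genes and none of the 7, EC hold at most 8 arterial genes, and HEC cell 3 sits with EC cell 1 at 5 and 4.

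Prox1, the switch of lymphatic identity, was not above background on any of its 3 probe sets in any cell (0 of 84, which allows a share of up to 3.57%). Its highest value was 3.55, in EC cell 4. After quantile normalization 1 HSC and 2 EC crossed the limit. Other lymphatic genes were detected, but most of these also belong to other vessels: Flt4 in 5 of 7 HEC and 6 of 7 EC, Nrp2 in 3 HEC and 5 EC, Foxc2 (a forkhead factor needed for lymphatic valves) in 4 HEC and 2 EC, and Itga9 in 6 HEC and 2 EC. Reln and Ccbe1 were at background in all 84 cells, and Pdpn (podoplanin) was above it in 1 HSC and in EC cell 3.

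Against the whole table the 6 measured genes gave mixed counts. For HEC minus EC 1 was higher by 1 or more (Lyve1, 1.24, from 1 cell) and 2 lower (Aplnr and Mmrn1; without EC cell 3 also Apln, which makes 3), against 45.9% higher and 7.36% lower over all 10694 genes. Their median was −0.29, against 0.82. For E10.5 cluster minus HEC 1 was higher (Mmrn1, 2.83) and 5 lower, from −1.21 for Apln to −3.37 for Aplnr, against 43.1% higher and 15.7% lower. For E10.5 cluster minus EC 0 were higher and 5 lower, with Lyve1 at −0.09, against 61.5% and 6.76%. These comparisons share populations, so their values are set side by side and not counted as separate evidence.

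Between blood stages Mmrn1 made the calls almost alone. For E12.5 minus E10.5 cluster cells 0 of the 6 were higher and 1 lower (Mmrn1), against 5.47% and 39.9% of all genes. For HSC minus E12.5 cluster cells 1 was higher (Mmrn1) and 0 lower, against 7.91% and 36.9%. For HSC minus E10.5 cluster cells 1 was higher (Lyve1, 1.02, from HSC cells 5 and 7) and 0 lower, against 5.01% and 55.5%, and without the 6 cells none was higher. A member was measured here because some population held it, so these counts describe and do not support a direction.

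**Figure D5:**
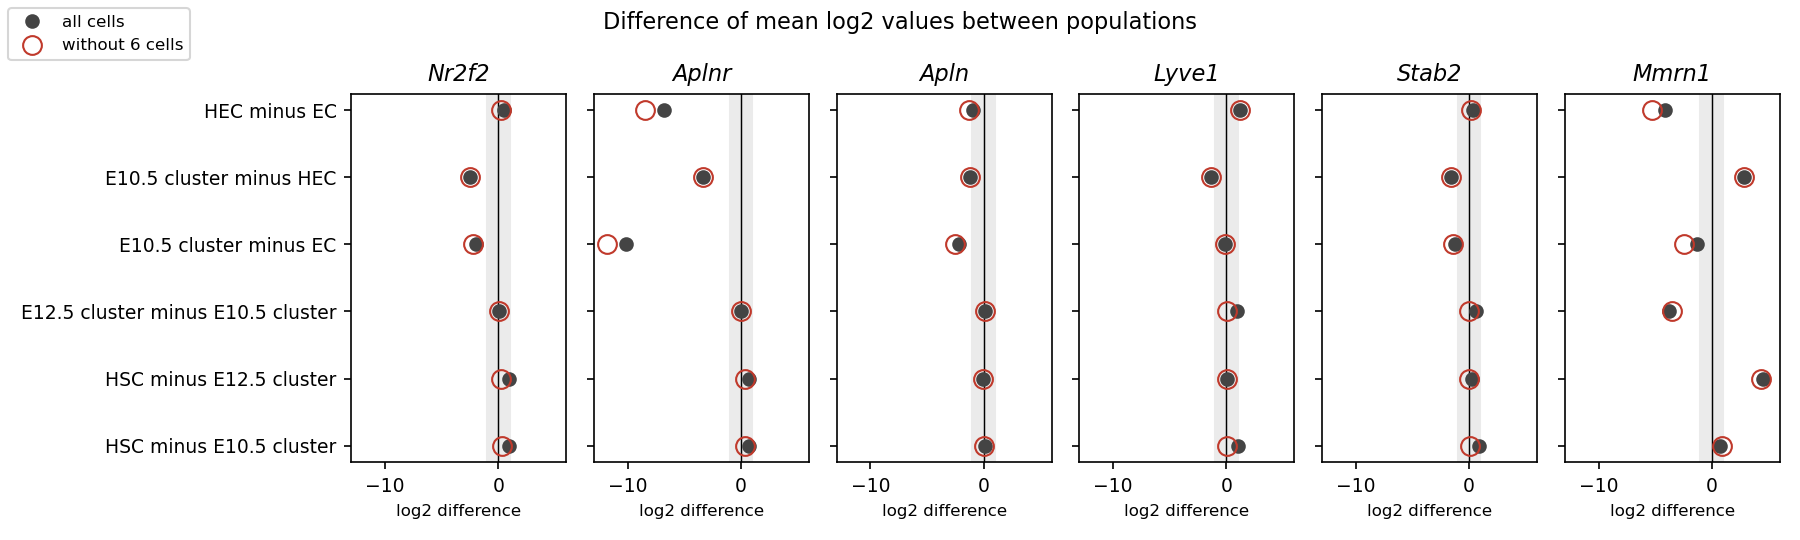
Difference of mean log2 values (x axis) of the 6 measured genes in the 6 comparisons (rows), over all cells (filled) and without the 6 cells that go against their sorted identity (open circles), with the grey band marking differences smaller than 1. Aplnr is at −6.80 for HEC minus EC and −10.16 for E10.5 cluster minus EC, and Mmrn1 at 2.83, −3.81 and 4.51 in the steps into E10.5 cluster, E12.5 cluster and HSC.

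Other genes of venous, lymphatic and sinusoid endothelium were counted in the same way. Of 9 other venous genes 5 were higher in HEC than in EC: Dab2 (3.28), Vwf (5.19), Tek (2.17), Sox18 (2.33) and Plvap (2.02). The 1 lower gene was Nrp2 (6.08 ± 4.74 in HEC and 8.87 ± 4.65 in EC). Flt4 (−0.99), Ephb4 (−0.44) and Emcn (0.76) lay below the size called. The median was 2.02, but without EC cell 3 only 3 were higher and 2 lower. Tek, Sox18 and Plvap are also on the pan-endothelial list, of which 17 of 19 genes were higher and 0 lower. Of 9 measured lymphatic genes 7 were higher and 1 lower, with a median of 3.05, among them Vegfc (11.37 ± 4.09 in HEC and 3.47 ± 2.83 in EC), Gata2 (10.45 ± 3.39 in HEC and 5.77 ± 4.48 in EC) and Efnb2 (12.13 ± 0.61 in HEC and 6.68 ± 4.10 in EC), of which Vegfc and Efnb2 are also on the arterial list. Of 11 measured sinusoid genes 5 were higher and 0 lower, with a median of 0.70. Over all measured genes 45.9% were higher and 7.36% lower, with a median of 0.82, so the sinusoid count lies near the background.

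For E10.5 cluster minus HEC all 9 venous genes, 8 of 9 lymphatic genes and 7 of 11 sinusoid genes were lower, together with 19 of 19 pan-endothelial and 18 of 18 arterial genes, while 17 of 18 pan-hematopoietic genes were higher. Over all measured genes 15.7% were lower and 43.1% higher. Emcn, Tek, Sox18 and Plvap are on both the venous and the pan-endothelial list. Nrp2, Flt4 and Sox18 are on both the venous and the lymphatic list, and Flt4 is also on the sinusoid list. The counts of these lists thus in part repeat the same genes. For hyaluronan handling, Cd44, the main hyaluronan receptor of blood cells, was detected in 27 cluster cells at E10.5 and 14 at E12.5, 20 HSC, 5 HEC and 0 EC. The synthases Has1, Has2 and Has3 were not detected in any cell. Mmrn2, the endothelial relative of Mmrn1, was detected in 2 cluster cells at E10.5 and 0 at E12.5, 2 HSC (cells 5 and 7, with 0 of the other 24), 7 HEC and 5 EC.

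The genes whose values ran most like each member over the 84 cells were sought among 9982 genes detected in 5 cells or more, by Pearson correlation, given as a description of cells that share populations and detection. For Aplnr they were Abcc9 (r = 0.82), Flt4 (0.77) and Fbn2 (0.77), which kept 0.80, 0.80 and 0.81 without the 6 cells. For Nr2f2 they were Oit3 (0.78), Amotl1 (0.75) and Stab2 (0.75), at 0.63, 0.67 and 0.71 without the 6 cells. The 3 genes closest to Nr2f2 over those 78 cells were all others, Gnai1 (0.74), Ptprd (0.71) and Ccn1 (0.69). For Stab2 they were Oit3 (0.87), Maf (0.77) and Gpr182 (0.75), and 4 of the 5 Stab2 cells held Oit3. Without the 6 cells Stab2 was above background in 1 HEC and 1 EC, too few to seek such genes.

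For Mmrn1 the highest values were lower, Esam at 0.44, Calcrl at 0.44 and Egfl7 at 0.42. Without the 6 cells Esam stayed first (0.44), followed by Rhobtb3 (0.43) and Mycn (0.42). Esam (an endothelial adhesion molecule) was above background in 24 of 26 HSC, 7 of 7 HEC and 6 of 7 EC but 1 of 16 E12.5 cluster cells. Apln, Lyve1 and Prox1 were above background in fewer than 5 cells and no such genes were sought.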

How the data were processed

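Gene expression was measured in 85 single mouse cells on Affymetrix arrays. The authors deposited log2 values. GCRMA and affy are named per the submitters' processing notes, and versions are not given in the sources used here. Values ran from 2.19 to 17.86, and 17.6% lay over the background limit of 5. In 62 of the 85 arrays the Dap 3' and the Phe 3' control both sat at 1 common value, and whether arrays were scaled to them is not given in the sources used here.

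Of 45101 probe sets 34945 had 1 gene symbol in the platform annotation, 932 had several and 9211 were not listed. Only those with 1 symbol were used, and control probe sets were left out. For each of 18193 genes the probe set of highest average, with the 5 populations given equal weight, stood for the gene. The 10694 genes above background in at least 3 cells counted as measured. For the 7 members all probe sets were examined.

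HSC arrays 20 and 21 were averaged, since they correlated above 0.95, a limit chosen after the values were seen. The sample titles call each cell a biological replicate but name no animal, litter or culture. Whether the cells came from separate animals is not stated, and their spread may be technical. Therefore no test was made. Differences are between mean log2 values, called at 1, and intervals are exact Clopper-Pearson at 95%, or 3 counts of the total where a count was 0, and cover counting error over cells only. Named genes were the members, the 3 genes most correlated with each member above background in at least 5 cells, and members of the gene lists. Members, lists and the 6 cells left out in an alternative were chosen with earlier results of these data known. A RefSeq table gave the promoter windows, and motifs were searched as exact letters on both strands.

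Alternatives were thresholds of 4 and 7, the mean of all probe sets, 2 rescalings, medians, kept duplicates and cells left out. The code for differences was run on the measured values shuffled over cells, with known shifts added. The correlation search was run with noisy copies of members planted. Both check the arithmetic only and not the limits chosen. Python 3.11.15, numpy 2.4.6, pandas 2.3.3, scipy 1.17.1 and matplotlib 3.10.9 were used.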

Additional observations from a re-analysis of the deposited data

Results flagged for a closer look

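Each of the 6 measured genes was checked in HEC and in EC for a single cell whose gap to the nearest other cell was large against the whole range of its 7 cells (above 0.568). Of these 12 groups 6 had such a cell, where chance gives about 1 in 20 for smoothly spread values. These genes are on or off in a cell, so a gene on or off in exactly 1 cell can pass by construction, and the count shows no more than that.

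Among HEC, Apln stood at 11.18 in cell 3, Lyve1 at 11.31 in cell 7 and Stab2 at 13.11 in cell 6, with the nearest other HEC at 2.57, 2.37 and 2.39. Among EC, Stab2 stood at 10.31 in cell 1 with the nearest other EC at 2.41. EC cell 3 was the low cell for Aplnr (2.32, nearest 11.84) and for Mmrn1 (2.32, nearest 8.65). That cell held 5 of 7 germ-cell genes and 2 of 19 pan-endothelial genes.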

How the results depend on the processing

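No paired analysis was possible because the results come from no test and the replicate numbers only name cells. Counts of members called were small and moved easily. For HEC minus EC 1 was higher: 0 with the mean of probe sets, with cells shifted to an equal median or with medians over cells, 2 in cells with both controls shared, and 0 to 3 when 1 cell was left out (0 without HEC 7, 2 without EC 4, 3 without EC 1). The number lower was 2, and 3 without EC 3, with shifted cells or after quantile normalization. The members' median then ran from −1.26 to 0.13. For E10.5 cluster minus HEC 5 were lower: 3 with the mean of probe sets or shifted cells, 0 with medians over cells (median difference −0.047), and 4 to 5 with 1 cell left out. For E10.5 cluster minus EC 5 were lower: 3 with the mean of probe sets or in cells with both controls, 1 with medians (median difference −0.10), and 3 to 5 with 1 cell left out (3 without EC 1). In cells with both controls, E12.5 minus E10.5 cluster had 1 higher instead of 0, and HSC minus E12.5 cluster 1 lower instead of 0. For HSC minus E10.5 cluster 1 was higher: 2 after quantile normalization, and 0 with the mean of probe sets, medians, both near-identical arrays kept, without the 6 cells, or in cells with both controls. Among differences of 1 or more, those that changed sign were Lyve1 for HEC minus EC (−0.043 with medians, −0.045 in cells with both controls, and −0.042 without HEC 7 to 1.46 without HEC 3), Apln for E10.5 cluster minus HEC (−1.44 to 0.031 with 1 cell left out, the highest without HEC 3) and Mmrn1 for E10.5 cluster minus EC (0.061 in cells with both controls). Smaller differences for HEC minus EC also changed sign with 1 cell left out: Nr2f2 ran from −0.65 to 1.30, Stab2 from −1.16 to 1.51 and Apln from −2.19 to 0.067, so their direction is not settled. The cause was not tested, except that genes on in a minority of cells have medians at the floor by construction.

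Rescaling moved the median of all genes for HEC minus EC to −0.15 with shifted cells and to 0 after quantile normalization, against 0.82. Under these, Aplnr was −7.77 and −7.64 and Mmrn1 −5.11 and −4.96. Of 35 counts of cells, quantile normalization changed 7, a threshold of 4 changed 2, a threshold of 7 changed 1 and the use of any probe set 0, all within the exact intervals. The correlations without the 6 cells were chosen after seeing the data. With 7 HEC and 7 EC, 1 cell moves a share by 14.3 percentage points, and undetected transcripts cannot be told from absent ones.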
